A study of Homo sapiens with 6 samples.

Results

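AP-1 is a dimeric transcription factor built from FOS and JUN proteins, and it shares its stimulus-driven regulation with ATF3 and the EGR zinc-finger factors. The 10 genes described here are FOS, FOSB, FOSL1 and FOSL2, JUN, JUNB and JUND, ATF3, EGR1 and EGR3. They were taken by name, by matching the NCBI Gene IDs of the count tables to RefSeq symbols. All 10 were among the 28395 gene IDs counted, and all 10 passed the filter on low counts that left 16381 genes for testing.

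The measurements are RNA-seq read counts from A375, an established line derived from a human melanoma with mutant, active BRAF. The palbociclib group received 1 µM palbociclib, which blocks the cell cycle kinases CDK4 and CDK6, for 72 h. The GSK3326595 group received 500 nM GSK3326595, which blocks PRMT5, an enzyme that dimethylates arginines, for 72 h. The control group was grown with DMSO vehicle at 0.01% for 72 h. Each group has 2 libraries, all cells grew in supplemented RPMI medium, and each inhibitor was given at 1 dose and sampled once. Levels are CPM, that is, counts per 1e+06 of the TMM-scaled library size, and a gene is called when its edgeR quasi-likelihood test reached a Benjamini-Hochberg adjusted p under 0.05 over all 16381 genes. Errors on levels are SD with n = 2, errors on log2 fold changes are SE, and intervals are 95% intervals of the log2 fold change.

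FOS and JUN proteins pair through leucine zippers and bind AP-1 sites, while JUN proteins can also pair with ATF factors at cyclic AMP response elements. Several FOS, JUN and EGR genes are classic immediate-early genes, switched on within minutes of a growth factor or stress signal and usually transient. JUND is more steadily expressed. In cells with an active RAS, RAF, MEK and ERK cascade, ERK activates SRF-bound ternary complex factors at CArG boxes and stabilises FOSL1 protein, and FOSL1 is known for high levels in less differentiated melanoma.

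The promoter of EGR1 is shown first, because EGR1 had the largest fold change of the 10 genes. The stretch covers the 250 bases before the RefSeq start, at chr5:138465229-138465478 on the plus strand of GRCh38.p14, and no annotated exon lies in it. Capitals mark matches to the CArG box and to TGACGT or its reverse complement ACGTCA.
EGR1: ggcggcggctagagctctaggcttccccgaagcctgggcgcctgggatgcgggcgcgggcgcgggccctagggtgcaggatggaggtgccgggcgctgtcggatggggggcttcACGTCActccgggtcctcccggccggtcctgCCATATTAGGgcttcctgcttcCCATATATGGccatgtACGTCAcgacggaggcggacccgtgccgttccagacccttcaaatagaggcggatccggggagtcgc

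The JUN and ATF3 sites are shown because both genes rose with GSK3326595 and both windows hold the same letters, TGACATCA, a variant of the cyclic AMP response element on which JUN and ATF proteins pair. The JUN site lies at chr1:58784098-58784123 on the minus strand, its capitals 67 to 60 bases before the RefSeq start and inside an exon of the GENCODE annotation. The ATF3 site lies at chr1:212565275-212565300 on the plus strand, its capitals 123 to 116 bases before the upstream of the gene's RefSeq starts, outside annotated exons. FOS and FOSL2 are set beside them because they moved in opposite directions with GSK3326595 and both hold the core TGACGT, at chr14:75278755-75278778 and chr2:28392783-28392806, both on the plus strand. All sequences are from RefSeq, GRCh38.p14.
JUN: gccttggggTGACATCAtgggctatt
ATF3: cctatgataTGACATCAtatggccac
FOS: ttgagcccgTGACGTttacactca
FOSL2: gtctggggtTGACGTgagtgaatc

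RefSeq windows were matched for 8 of the 10 genes, 9 windows in all because ATF3 has a window at each of its starts. Over 35097 windows of 250 bases searched on both strands, TGACATCA was found in 2.37% and the core TGACGT in 7.1%. The core was found in FOS, FOSB, FOSL2, JUND and EGR1, and JUND alone of the 8 held the full element TGACGTCA, which contains the core and was found in 1.65% of all windows. The CArG box, the SRF site, was found in 1.16% of windows and, among the 8 genes, in EGR1, which held 2 matches that do not overlap the ACGTCA matches. TATAAA was found in FOS, FOSB, JUNB and ATF3, against 10.7% of all windows. TGANTCA, the AP-1 site, was found in 6.57% of all windows, and the EGR motifs GCGTGGGCG and GCGGGGGCG in 0.721% and 4.72%. None of these 3 motifs matched in any of the 9 windows. For every motif, the CArG box included, a missing match says only that the letters are not in these 250 bases.

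**Figure D1:**
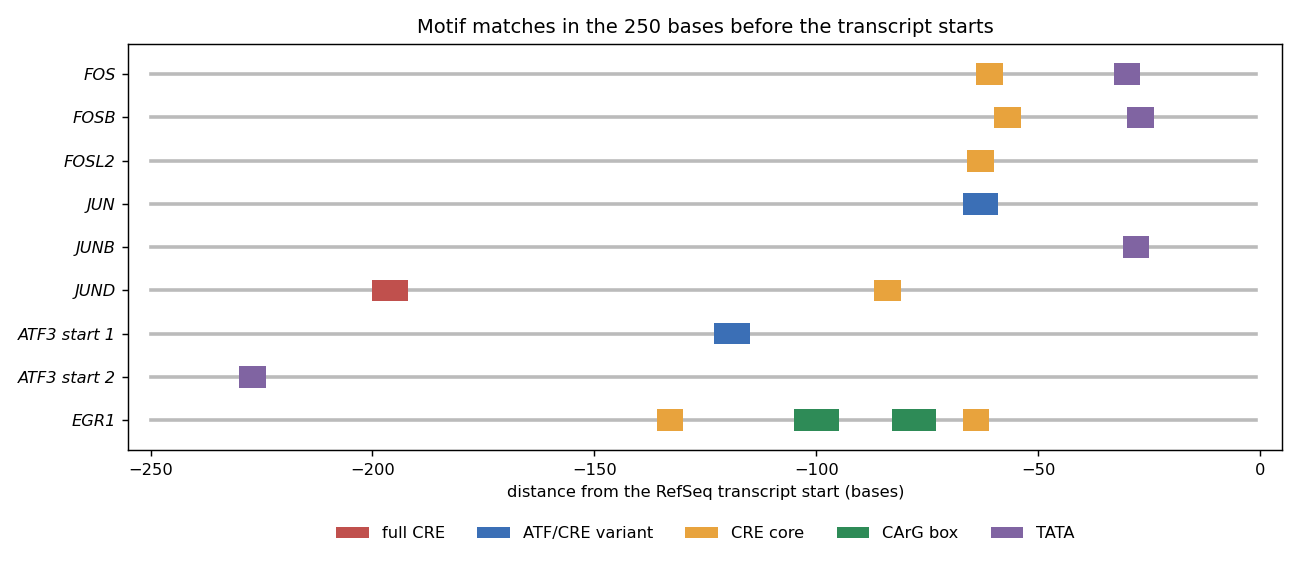
Motif matches in the 250 bases before the RefSeq starts of 8 of the 10 genes, with distance from the start in bases on the x axis and 1 line per window. Coloured boxes are matches on either strand: the 2 CArG boxes of EGR1 lie between its 2 core matches, and JUN and ATF3 each have 1 TGACATCA match.

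Before the values of single genes, the libraries were checked. Total counts ran from 16589153 to 20842099. The melanoma line markers SOX10 (122 to 237 CPM), MITF (57.4 to 87.4 CPM), CSPG4 (746 to 897 CPM) and MCAM (260 to 290 CPM) were present in every library. NES and SOX9 had 47.2 to 59.2 and 49.3 to 90.5 CPM. Other markers of that list were low: S100B had 3.12 to 10.9 CPM and S100A1 1.82 to 5.84 CPM. PMEL had 1.15 to 2.45 CPM, MLANA 0.937 to 1.98 CPM and MIA 0.815 to 1.97 CPM. The pigment enzymes TYR and DCT reached at most 0.0583 and 0.466 CPM. Blood cell markers summed to 91.2 and 83.6 CPM with palbociclib, 71.9 and 74.6 CPM with GSK3326595, and 97 and 89.8 CPM with DMSO; MS4A1 was at 0 in all 6 libraries and 7 of the 10 markers averaged under 1 CPM. Fibroblast and endothelial markers summed to 33.2 and 28.9 CPM with palbociclib, 35.7 and 31.3 CPM with GSK3326595, and 36.2 and 28.2 CPM with DMSO, and 5 of those 10 averaged under 1 CPM. Epithelial markers, mostly the keratins KRT8 and KRT18, summed to 692 and 765 CPM with palbociclib, 680 and 838 CPM with GSK3326595, and 730 and 797 CPM with DMSO. The 10 heat-shock genes, also stress-responsive, summed to 3668 and 4397 CPM with palbociclib, 4014 and 5619 CPM with GSK3326595, and 4432 and 6650 CPM with DMSO, so replicate 2 was higher than replicate 1 in each group. FOSB, FOSL1, FOSL2, JUNB, EGR1 and EGR3 were likewise higher in replicate 2 of each group. Blocked values are given below only where the block changed a call, which among these genes was JUNB alone. For the others, the part of the replicate number in their levels is not given.

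Single markers of other cell types were called, while PTPRC, CD3E, CDH5, DCN, COL3A1 and CDH1 reached at most 0.466 CPM in any library. Other markers of the same lists were well expressed. CD68 had 63.1 to 89.1 CPM, PDGFRB 14 to 28.3 CPM and DSP 37.1 to 69.5 CPM. KRT8 and KRT18 had 124 to 180 and 465 to 598 CPM. With palbociclib 2 of 6 tested fibroblast and endothelial markers rose and 2 fell, 1 of 3 tested blood cell markers rose and 1 fell, and 2 of 7 tested epithelial markers rose and 1 fell. LUM had 7.04 ± 0.173 CPM with palbociclib, against 1.64 ± 0.0342 CPM with DMSO (edgeR adjusted p = 6.54e-05), and the other rise, KDR, had 3.18 ± 0.468 CPM, against 0.245 ± 0.126 CPM (edgeR adjusted p = 4.15e-05). LYZ had 13.8 ± 0.336 CPM with palbociclib, against 4.58 ± 0.071 CPM with DMSO (edgeR adjusted p = 0.000168). KRT14 had 7.43 ± 1.31 CPM with palbociclib, against 2.05 ± 0.0999 CPM with DMSO (edgeR adjusted p = 7.98e-05), and DSP rose by 0.76 (edgeR adjusted p = 9.1e-05). The falls were of PDGFRB, PECAM1, CD68 and KRT8, by 0.64, 0.96, 0.28 and 0.36 on the log2 scale (edgeR adjusted p = 0.00805, 0.0401, 0.0239 and 0.00734). PDGFRB was lost without palbociclib replicate 2 or DMSO replicate 1, PECAM1 and CD68 without any 1 palbociclib or DMSO library, and KRT8 without either palbociclib library or DMSO replicate 2. The 2 epithelial rises were 4 without either GSK3326595 library and 5 with the replicate block. With GSK3326595 the calls in these lists were rises of KDR and CLDN1 and a fall of CD68 (edgeR adjusted p = 0.00451, 0.000365 and 0.00728). CD68 was lost without DMSO replicate 1 (edgeR adjusted p = 0.0539), LUM higher and PECAM1 lower were added without GSK3326595 replicate 1, and both of these and DSP were added with the block. Among the melanoma line markers, S100B and S100A1 rose and SOX9 fell with palbociclib, by 1.66, 1.16 and 0.61 (edgeR adjusted p = 3.15e-05, 0.00451 and 0.00129), and MITF rose by 0.49 with GSK3326595 (edgeR adjusted p = 0.00324). Without either GSK3326595 library, SOX10 and PMEL were added to the rises with palbociclib and NES to the falls. The part of these markers in the results of the 10 genes was not tested.

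EGR1 and ATF3 rose with GSK3326595 and were not called with palbociclib, and both differed between the inhibitors when that difference was tested. FOSL1 fell with each inhibitor. FOSL2 and JUN rose with GSK3326595 and were lower with palbociclib than with GSK3326595, and EGR3 was the 1 gene of the 10 called higher with palbociclib than with DMSO. In these bulk samples, fewer cells expressing a gene and less RNA of it per cell cannot be told apart.

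Palbociclib against DMSO gave 3 calls among the 10 genes, EGR3 higher and FOSL1 and FOSL2 lower, while 39.5% of all tested genes were called (19.3% higher and 20.2% lower). The share among the 10 was no larger than that background. Their median log2 fold change was -0.02, and so was that of all tested genes, at -0.018. Palbociclib and DMSO libraries did not overlap for 7 of the 10 genes, against 72.5% of all genes.

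GSK3326595 against DMSO gave 6 calls, with FOSL2, JUN, ATF3 and EGR1 higher and FOS and FOSL1 lower, while 18.8% of all genes were called (8.58% higher and 10.2% lower). With a block for the replicate number, 5769 genes were called in place of 3081, and JUND became a 5th member called higher. The median over the 10 genes was 0.06 against -0.0011 for all genes, so the rises and falls among them left the middle close to the background. The libraries did not overlap for 6 of the 10, against 57.3% of all genes.

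Palbociclib against GSK3326595 gave 7 calls, with FOSB, JUNB and EGR3 higher and FOSL2, JUN, ATF3 and EGR1 lower in palbociclib cells, while 34.8% of all genes were called (16.6% higher and 18.2% lower). Their median was -0.08 against -0.0335 for all genes, and 9 of the 10 did not overlap, against 67.4% of all genes. Both comparisons against DMSO share the 2 DMSO libraries, so their values are given side by side and this direct test carries the difference between inhibitors.

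**Figure D2:**
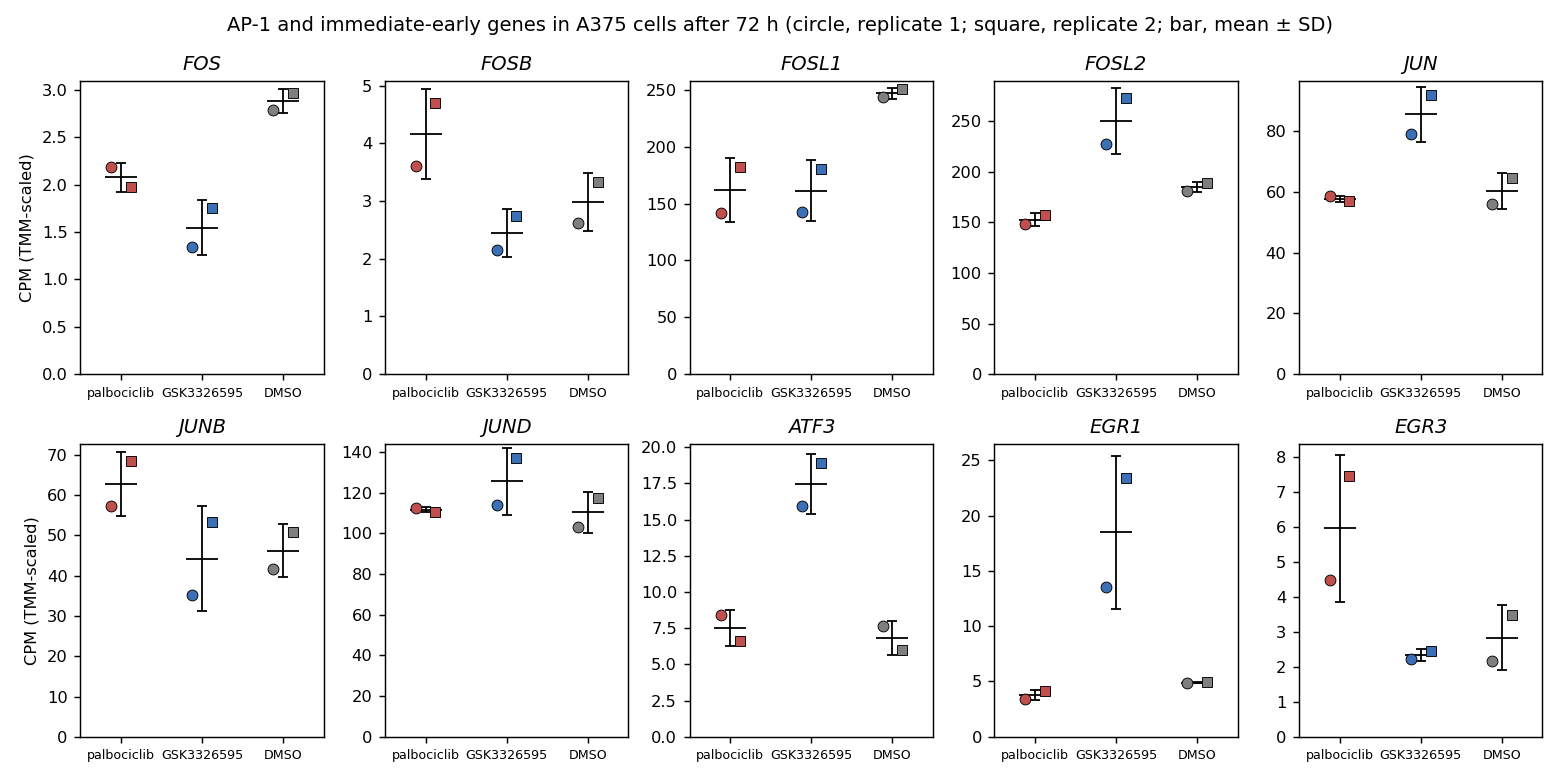
CPM of each of the 10 genes (y axis, from 0, scaled per gene) in the palbociclib, GSK3326595 and DMSO libraries; circles are replicate 1, squares replicate 2 and bars the mean ± SD (n = 2). EGR1 lay at 13.6 and 23.4 CPM with GSK3326595 and at no more than 4.95 CPM in the other libraries, and both DMSO libraries lay above all 4 treated libraries for FOSL1.

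FOSL1 (Gene ID 8061, chr11:65892049-65900545, minus strand), which encodes FRA-1, a FOS protein without the transactivation domain of FOS, stood at 142 and 182 CPM with palbociclib and at 142 and 180.5 CPM with GSK3326595, against 244 and 250.5 CPM with DMSO. Every treated library was below both DMSO libraries, and replicate 2 was the higher of each treated pair. The log2 fold change was -0.61 ± 0.128 with palbociclib (interval -0.89 to -0.33; edgeR adjusted p = 0.00274) and -0.61 ± 0.129 with GSK3326595 (interval -0.89 to -0.33; edgeR adjusted p = 0.00673). These are 0.656-fold and 0.653-fold of the DMSO level. Between the inhibitors it differed by 0.01 on the log2 scale, with an interval of -0.27 to 0.29 (edgeR adjusted p = 0.972), which leaves differences of that size unresolved.

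FOSL2 (Gene ID 2355, chr2:28392858-28417317, plus strand) encodes FRA-2, the other FOS protein that lacks that domain. It had 148 and 157 CPM with palbociclib, 227.5 and 273 CPM with GSK3326595, and 181 and 189 CPM with DMSO, so the 3 groups did not overlap. It rose with GSK3326595 by 0.44 ± 0.098 (edgeR adjusted p = 0.00985), a call lost without GSK3326595 replicate 2 (edgeR adjusted p = 0.0666) and without DMSO replicate 1 (edgeR adjusted p = 0.0821). With palbociclib it fell by 0.28 ± 0.0983 on the log2 scale (edgeR adjusted p = 0.0406), and this call was lost in 6 of 13 alternatives, among them the removal of any 1 palbociclib or DMSO library (edgeR adjusted p between 0.0836 and 0.239) and DESeq2 (DESeq2 adjusted p = 0.0654). Palbociclib against GSK3326595 gave -0.71 ± 0.0984 (edgeR adjusted p = 0.00022), and the call held in all 13 alternatives.

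FOS (Gene ID 2353, chr14:75278828-75282230, plus strand), the prototype of the family, was low: 2.18 and 1.97 CPM with palbociclib, 1.34 and 1.75 CPM with GSK3326595, and 2.79 and 2.97 CPM with DMSO. These levels rest on 43 and 41 reads with palbociclib, 23 and 30 with GSK3326595, and 50 and 57 with DMSO. FOS fell by 0.90 ± 0.288 on the log2 scale with GSK3326595 (edgeR adjusted p = 0.0486), but 9 of the 13 alternatives lost the call, including the removal of any 1 of the 6 libraries (edgeR adjusted p between 0.061 and 0.163) and DESeq2 (DESeq2 adjusted p = 0.142). With palbociclib the value was -0.47 ± 0.271 (edgeR adjusted p = 0.187), and between the inhibitors 0.43 ± 0.296 (edgeR adjusted p = 0.294), neither called.

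FOSB (Gene ID 2354, chr19:45467996-45475179, plus strand), which encodes the remaining full-length activator of the family, had 3.61 and 4.71 CPM with palbociclib, 2.16 and 2.74 CPM with GSK3326595, and 2.62 and 3.33 CPM with DMSO. Both palbociclib libraries were the highest, and the GSK3326595 and DMSO libraries overlapped. It was higher with palbociclib than with GSK3326595 by 0.76 ± 0.264 (edgeR adjusted p = 0.0409). Dropping palbociclib replicate 1 removed that call (edgeR adjusted p = 0.0631), as did dropping palbociclib replicate 2 (0.289) or GSK3326595 replicate 1 (0.142) or using DESeq2 (DESeq2 adjusted p = 0.0911). Against DMSO it was not called with palbociclib (0.48 ± 0.255; edgeR adjusted p = 0.154) or GSK3326595 (-0.28 ± 0.275; edgeR adjusted p = 0.513).

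Levels of different genes can be compared only per length, here CPM per kilobase of exon, using the union of exons of coding transcripts in the GENCODE annotation. On that scale FOSL1 made up 76.9% and 80.1% of the summed FOS subfamily with palbociclib, 69.2% and 70.4% with GSK3326595, and 82.5% and 82.2% with DMSO. FOSL2 made up 21.7% and 18.7% with palbociclib, 30% and 28.9% with GSK3326595, and 16.6% and 16.8% with DMSO. FOS and FOSB each stayed under 1% in every library (at most 0.741% and 0.686%). The FOS subfamily transcript pool of these cells was therefore almost all FOSL1 and FOSL2, and FOSL2 had its highest share in both GSK3326595 libraries. The summed level was 100.3 and 124 CPM per kilobase with palbociclib and 112 and 139 with GSK3326595, below the 160.5 and 166 of DMSO.

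JUN (Gene ID 3725, chr1:58780791-58784047, minus strand; a gene of 1 exon) is the strongest activator of the JUN proteins. It had 58.5 and 57.1 CPM with palbociclib, 79.2 and 91.9 CPM with GSK3326595, and 56.1 and 64.6 CPM with DMSO. Both GSK3326595 libraries were above the other 4, and palbociclib and DMSO overlapped. The rise with GSK3326595 was 0.50 ± 0.102 (interval 0.28 to 0.72; edgeR adjusted p = 0.0056), lost only without DMSO replicate 1 among the 13 alternatives (0.38; edgeR adjusted p = 0.0782). Palbociclib against DMSO gave -0.06 (interval -0.28 to 0.16; edgeR adjusted p = 0.661), and palbociclib against GSK3326595 gave -0.56 ± 0.102 (edgeR adjusted p = 0.00127).

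JUNB (Gene ID 3726, chr19:12791486-12793315, plus strand; 1 exon), whose protein can oppose JUN at some promoters, had 57.3 and 68.5 CPM with palbociclib, 35.1 and 53.4 CPM with GSK3326595, and 41.6 and 50.8 CPM with DMSO. The palbociclib libraries were the highest and the GSK3326595 libraries spanned both DMSO values. The difference between palbociclib and GSK3326595 was 0.51 ± 0.169 (edgeR adjusted p = 0.0353), between 0.25 without GSK3326595 replicate 1 (edgeR adjusted p = 0.195) and 0.84 without GSK3326595 replicate 2, and it was also lost without palbociclib replicate 2 (edgeR adjusted p = 0.213). Palbociclib against DMSO gave 0.44 ± 0.168 and missed the threshold (edgeR adjusted p = 0.0531); 10 of the 13 alternatives called it, among them the replicate block (edgeR adjusted p = 8.44e-06). Against DMSO, GSK3326595 gave -0.06 (interval -0.43 to 0.31; edgeR adjusted p = 0.835). HOOK2 overlaps JUNB on the opposite strand without sharing exonic bases.

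JUND (Gene ID 3727, chr19:18279694-18281622, minus strand; 1 exon), the JUN protein most steadily expressed in resting cells, stayed between 103 and 137 CPM: 112.5 and 111 CPM with palbociclib, 114 and 137 CPM with GSK3326595, and 103 and 117.5 CPM with DMSO. No comparison was called. Palbociclib against DMSO was 0.02 (interval -0.20 to 0.24; edgeR adjusted p = 0.916). GSK3326595 against DMSO was 0.19 ± 0.102 (edgeR adjusted p = 0.229) and palbociclib against GSK3326595 -0.17 ± 0.101 (edgeR adjusted p = 0.22), and with the replicate block both were called (edgeR adjusted p = 0.0351 and 0.0472).

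Per kilobase of exon, JUND made up 55.7% and 52.5% of the JUN subfamily with palbociclib, 59.5% and 57.1% with GSK3326595, and 58.9% and 57.7% with DMSO. JUNB made up 29% and 33.2% with palbociclib, 18.8% and 22.8% with GSK3326595, and 24.3% and 25.6% with DMSO. JUN made up 15.3% and 14.3% with palbociclib, 21.8% and 20.1% with GSK3326595, and 16.8% and 16.7% with DMSO. The order JUND, JUNB, JUN held in all 4 palbociclib and DMSO libraries. In GSK3326595 replicate 1 JUN was above JUNB, and in replicate 2 it was below.

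**Figure D3:**
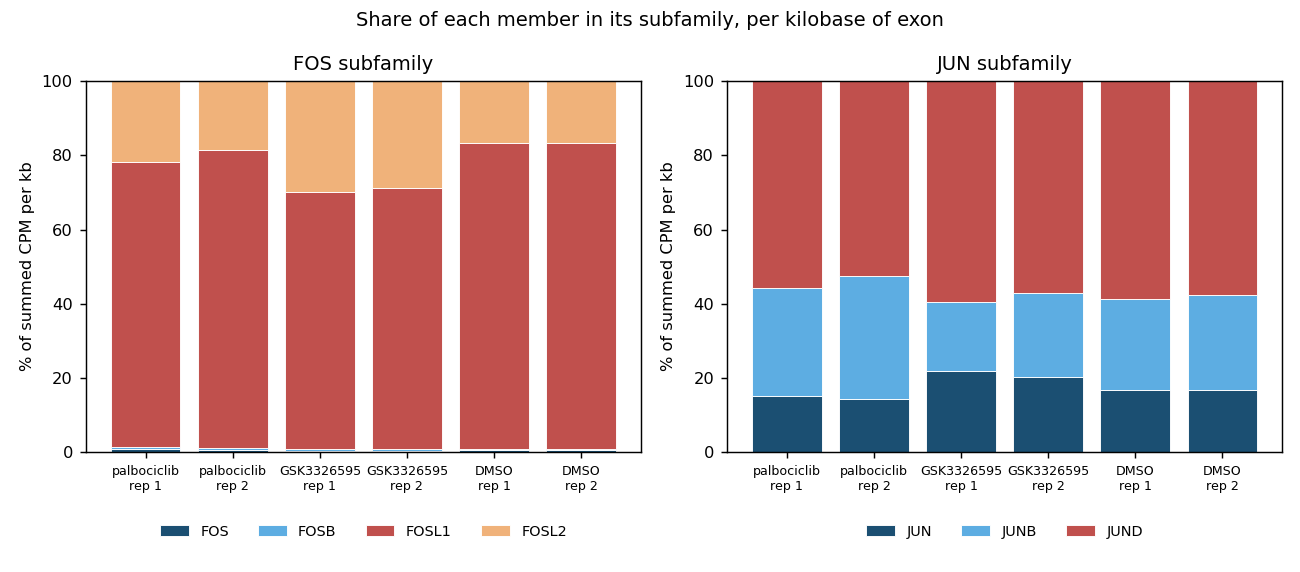
Share of each gene in the summed CPM per kilobase of exon of its subfamily (y axis, %, from 0), 1 bar per library. FOSL2 took 30% and 28.9% of the FOS subfamily with GSK3326595, against 16.6% and 16.8% with DMSO, and JUNB took 29% and 33.2% of the JUN subfamily with palbociclib, against 24.3% and 25.6% with DMSO.

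ATF3 (Gene ID 467, chr1:212565407-212620777, plus strand), a stress-induced factor that pairs with JUN proteins and represses many promoters as a homodimer, had 8.38 and 6.63 CPM with palbociclib, 16 and 18.9 CPM with GSK3326595, and 7.64 and 5.99 CPM with DMSO. The GSK3326595 libraries held 274 and 325 reads and were above the other 4, whereas palbociclib and DMSO overlapped. ATF3 rose with GSK3326595 by 1.36 ± 0.179 (interval 0.97 to 1.75; 2.56-fold; edgeR adjusted p = 0.000369), and it was lower with palbociclib than with GSK3326595 by a log2 fold change of -1.22 ± 0.175 (edgeR adjusted p = 0.000295). Both calls held in all 13 alternatives, in which GSK3326595 against DMSO ran from 1.19 to 1.52. Palbociclib against DMSO gave 0.14 (interval -0.27 to 0.55; edgeR adjusted p = 0.584).

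EGR1 (Gene ID 1958, chr5:138465479-138469303, plus strand; 2 exons) encodes a zinc-finger activator of growth factor and matrix genes. It had 3.45 and 4.13 CPM with palbociclib, 13.6 and 23.4 CPM with GSK3326595, and 4.85 and 4.95 CPM with DMSO. The reads numbered 68 and 86 with palbociclib, 233 and 401 with GSK3326595, and 87 and 95 with DMSO. Both GSK3326595 libraries were above the rest, replicate 2 well above replicate 1, and both palbociclib libraries were below both DMSO libraries.

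The rise of EGR1 with GSK3326595 was 1.91 ± 0.238 (interval 1.39 to 2.43; 3.77-fold; edgeR adjusted p = 0.000252), and palbociclib against GSK3326595 gave -2.28 ± 0.244 (edgeR adjusted p = 4.65e-05). The rise was 1.47 without GSK3326595 replicate 2 and 2.25 without GSK3326595 replicate 1, and both calls held in all 13 alternatives. Palbociclib against DMSO was not called (-0.37 ± 0.269; interval -0.95 to 0.22; edgeR adjusted p = 0.299).

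EGR3 (Gene ID 1960), a related factor and itself a reported EGR1 target, had 4.47 and 7.45 CPM with palbociclib, 2.22 and 2.45 CPM with GSK3326595, and 2.18 and 3.49 CPM with DMSO. Palbociclib replicate 2 stood apart from its replicate, with 155 reads against 88. EGR3 rose with palbociclib by 1.07 ± 0.296 against DMSO (interval 0.42 to 1.71; 2.1-fold; edgeR adjusted p = 0.0129) and by 1.35 ± 0.307 against GSK3326595 (edgeR adjusted p = 0.00503). The first call was lost without palbociclib replicate 2 (0.65; edgeR adjusted p = 0.199) and without DMSO replicate 1 (0.77; edgeR adjusted p = 0.0924), and the second without palbociclib replicate 2 (0.94; edgeR adjusted p = 0.0837). GSK3326595 against DMSO gave -0.29 (interval -1.01 to 0.44; edgeR adjusted p = 0.596). EGR3 shares 164 exonic bases with AC055854.1 on the opposite strand, and since the strand setting of the counting is not given in the sources used here, its reads may include that gene's.

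**Figure D4:**
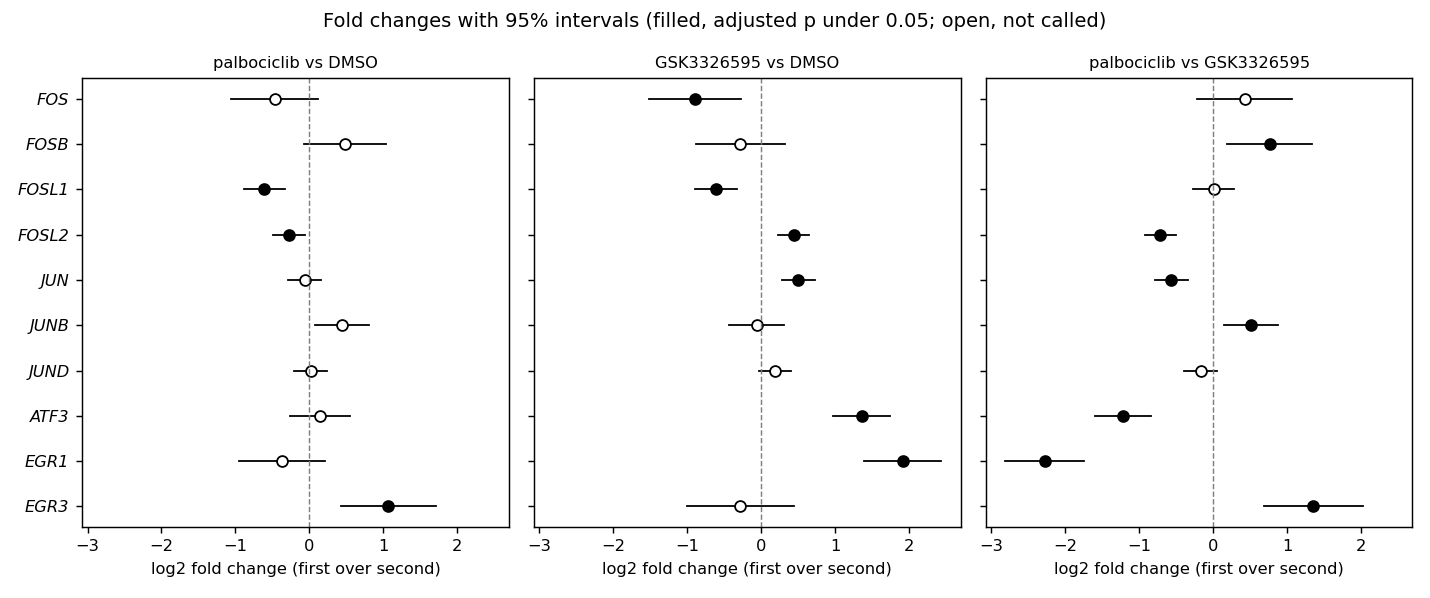
Log2 fold changes of the 10 genes (x axis) with 95% intervals in the 3 comparisons, first-named group over the second; filled points have an edgeR adjusted p under 0.05. EGR1 and ATF3 lie at 1.91 and 1.36 for GSK3326595 against DMSO, and FOSL1 lies at -0.61 against DMSO for both inhibitors.

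Per kilobase of exon, FOSL1 was the highest of the 10 in each group, with a mean of 88.1 CPM per kilobase with palbociclib, 87.7 with GSK3326595 and 134 with DMSO. JUND followed at 59.9 with palbociclib, 67.4 with GSK3326595 and 59.2 with DMSO. FOSL2, JUNB and JUN came next in each group, between 16.3 and 34.5 with palbociclib, 24.2 and 36.9 with GSK3326595, and 17 and 27.3 with DMSO. With GSK3326595 the values of JUN (22.4 and 25.9) and JUNB (19.3 and 29.4) overlapped, as did those of JUNB (22.9 and 27.9) and FOSL2 (26.7 and 27.8) with DMSO. ATF3 averaged 2.96 with palbociclib, 6.88 with GSK3326595 and 2.69 with DMSO, and EGR1 averaged 1.21 with palbociclib, 5.89 with GSK3326595 and 1.56 with DMSO. FOS averaged 0.707 with palbociclib, 0.525 with GSK3326595 and 0.98 with DMSO. FOSB averaged 0.749 with palbociclib, 0.441 with GSK3326595 and 0.536 with DMSO, and EGR3 averaged 1.34 with palbociclib, 0.524 with GSK3326595 and 0.636 with DMSO. In both GSK3326595 libraries EGR1 and ATF3 stood above FOS, FOSB and EGR3 and below the other 5 genes.

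The genes with the most similar profile were sought by the root mean square difference of centred log2 CPM over the 6 libraries, among genes outside the 10 that averaged at least 5 CPM and, with no such minimum, among the other members. EGR1 was nearest to GDF15, a secreted stress-responsive cytokine (0.279), and UNC13A (0.306), and among the members to ATF3 (0.479). ATF3 was nearest to GPRC5D (0.16) and POSTN (0.169), and among the members to JUN (0.405). FOSL2 was nearest to PDCD2L (0.0459) and to PRMT5, the methyltransferase that GSK3326595 inhibits (0.046), and JUN to RRP9 (0.0401) and DDX56 (0.043). FOSL2 and JUN were each other's nearest member (0.108), and so were FOS and FOSL1 (0.222). FOSL1 was nearest to C4orf46 (0.094) and RGS17 (0.0941), and FOS to KATNAL1 (0.0475) and SIRPA (0.0691). EGR3 was nearest to C15orf62 (0.182) and HLA-DPA1 (0.208), with FOSB its nearest member (0.3). For scale, the same measure from a gene's own mean was 0.994 for EGR1, 0.625 for ATF3 and 0.622 for EGR3. It was 0.371 for FOS, 0.327 for FOSL1, 0.303 for FOSL2 and 0.266 for JUN. Each outside neighbour is the smallest of many distances over only 6 libraries, and a link to any of them was not tested.

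Among 26 tested other immediate-early genes, 6 rose and 4 fell with palbociclib (list median 0.16), and 5 rose and 3 fell with GSK3326595 (median 0.15). Here and in the lists below, medians stand beside those over all genes given above. Counts stand beside the share of all tested genes called. That share was 39.5% for palbociclib against DMSO, 18.8% for GSK3326595 against DMSO and 34.8% for palbociclib against GSK3326595. BTG2, an antiproliferative p53 target, rose to 40.1 ± 11.1 CPM with palbociclib and 77.4 ± 23.3 CPM with GSK3326595, against 16.7 ± 2.96 CPM with DMSO (log2 fold changes 1.27 and 2.21; edgeR adjusted p = 0.000776 and 6.65e-05). HBEGF, an EGF receptor ligand, rose with GSK3326595 to 24.9 ± 4.11 CPM, against 13.6 ± 0.284 CPM with DMSO (0.87; edgeR adjusted p = 0.00106), and TIPARP, a mono-ADP-ribosyltransferase, rose with palbociclib by 0.71 (edgeR adjusted p = 0.000117). ERRFI1, a feedback inhibitor of the EGF receptor, fell by 0.88 with GSK3326595 (edgeR adjusted p = 8.37e-05) and KLF6, a zinc-finger factor, by 0.46 (edgeR adjusted p = 0.00603). CCN1 and CCN2, matricellular genes, were lower with palbociclib than with GSK3326595 by -1.25 ± 0.185 and -0.80 ± 0.132 (edgeR adjusted p = 0.000364 and 0.000711). With the replicate block 10 rose with palbociclib, and 11 rose and 5 fell with GSK3326595. The 4 falls with palbociclib, among them ERRFI1 and MCL1, were 1 without either palbociclib library or without DMSO replicate 2, and the 3 falls with GSK3326595 were 5 without GSK3326595 replicate 2.

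RNA of 23 other basic leucine zipper genes was tested, and not all of them encode partners of FOS or JUN. With palbociclib 7 rose and 4 fell (median -0.02), and with GSK3326595 1 rose and 2 fell (median -0.06). With palbociclib ATF4, the effector of the integrated stress response, had 151 ± 10.2 CPM, against 240 ± 7.45 CPM with DMSO (-0.67 ± 0.0856; edgeR adjusted p = 8.11e-05), and CREB1 fell by 0.70 (edgeR adjusted p = 0.00015). CREB3 and ATF5 rose by 0.65 and 0.61 (edgeR adjusted p = 0.00046 and 0.00286). CREB5, a JUN partner, rose with GSK3326595 by 1.28 ± 0.157 (edgeR adjusted p = 0.000229), and CREB1 fell by 0.53 (edgeR adjusted p = 0.00315). JDP2, a repressor that pairs with JUN, was lower with palbociclib than with GSK3326595 (-1.24 ± 0.268; edgeR adjusted p = 0.0037; 0.0505 without palbociclib replicate 2). The 7 rises with palbociclib were 3 without palbociclib replicate 1, 2 without palbociclib replicate 2 and 4 without either DMSO library, and its 4 falls were 2 without palbociclib replicate 2 or DMSO replicate 2 and 7 with the replicate block. The 2 falls with GSK3326595, CREB1 and MAFG, were 1 without either palbociclib library, GSK3326595 replicate 1 or DMSO replicate 2 and 4 with the block, and the single rise was 2 with the block.

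Upstream, 25 genes of the RAF, MEK, ERK, JNK and RSK kinases and of SRF and its cofactors were tested. With palbociclib 1 rose and 9 fell (median -0.14), beside 39.5% of all tested genes called. With GSK3326595 1 rose and 6 fell (median -0.13), beside 18.8% of all tested genes. ELK3, a ternary complex factor, fell by 0.63 with palbociclib (edgeR adjusted p = 8.84e-05) and MAPK9, which encodes JNK2, by 0.56 (edgeR adjusted p = 0.000417), while MAP2K2, which encodes MEK2, rose by 0.44 (edgeR adjusted p = 0.00163). RPS6KA5, which encodes the nucleosomal kinase MSK1, had 6.32 ± 1.03 CPM with GSK3326595 and 12 ± 1.36 CPM with DMSO (-0.93 ± 0.175; edgeR adjusted p = 0.00372), and RPS6KA3, which encodes RSK2, fell by 0.41 (edgeR adjusted p = 0.00475). The rise with GSK3326595, of ARAF, was lost without any 1 of the 6 libraries (edgeR adjusted p between 0.0522 and 0.216) and was 2 genes with the block. The 9 falls were 5 without palbociclib replicate 2, and the 6 were 3 without DMSO replicate 2.

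The dual-specificity phosphatases that switch off ERK, JNK and p38 are themselves read-outs of the cascade, and 9 were tested. With palbociclib 5 rose (median 0.38) and with GSK3326595 4 rose (median 0.17). DUSP10, which acts on JNK and p38, rose to 26.3 ± 0.581 CPM with palbociclib, against 8.48 ± 0.158 CPM with DMSO (1.63 ± 0.164; edgeR adjusted p = 1.26e-05), and DUSP6, the ERK phosphatase, to 267 ± 17.8 CPM, against 185 ± 1.98 CPM (0.53 ± 0.0871; edgeR adjusted p = 0.000541). Both were also higher with palbociclib than with GSK3326595, by 1.01 and 0.60 (edgeR adjusted p = 0.000498 and 0.000309). DUSP14 and DUSP10 rose with GSK3326595 by 0.55 and 0.62 (edgeR adjusted p = 0.0108 and 0.027). The 5 rises with palbociclib were 2 without palbociclib replicate 1 and 3 without DMSO replicate 1. The 4 rises with GSK3326595 were 1 without GSK3326595 replicate 2 or DMSO replicate 1, both of which lost DUSP10 and DUSP14, and 2 without DMSO replicate 2, which lost DUSP10 (edgeR adjusted p = 0.0805). At an adjusted p under 0.05, 1 phosphatase fell with palbociclib without DMSO replicate 1 or with the block, and 1 with GSK3326595 without GSK3326595 replicate 2.

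Of 24 tested genes reported as AP-1 targets, 12 rose and 4 fell with palbociclib (median 0.40), and 8 rose and 1 fell with GSK3326595 (median 0.36). With palbociclib MMP3, the collagenase-activating protease stromelysin, rose to 49.9 ± 5.25 CPM, against 12.9 ± 2.34 CPM with DMSO (1.96 ± 0.155; edgeR adjusted p = 1.88e-06), and SPP1, which encodes osteopontin, rose to 59.2 ± 4.57 CPM, against 11.4 ± 2.98 CPM (2.37 ± 0.196; edgeR adjusted p = 2.66e-06). AXL, a receptor kinase, had 471 ± 13.9 CPM with palbociclib, against 851 ± 22.1 CPM with DMSO (-0.85 ± 0.0962; edgeR adjusted p = 3.06e-05), and IL11 fell by 0.99 (edgeR adjusted p = 0.000783). With GSK3326595 ITGA2, a collagen-binding integrin, rose by 0.81 ± 0.0912 (edgeR adjusted p = 0.000126).

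Directly compared, 9 of the 24 AP-1 target genes were higher and 7 lower with palbociclib than with GSK3326595. PTGS2, the inducible cyclooxygenase, had 7 ± 3.22 CPM with palbociclib and 0.816 ± 0.0821 CPM with GSK3326595 (3.09 ± 0.378; edgeR adjusted p = 0.000106), and SPP1 differed by 1.85. IL11 had 21.8 ± 2.67 CPM with palbociclib and 62.9 ± 11.9 CPM with GSK3326595 (-1.53 ± 0.172; edgeR adjusted p = 6.42e-05), and AXL differed by -0.63 (edgeR adjusted p = 0.000413). The 7 lower genes were 4 without either palbociclib library. Against DMSO, the 8 rises with GSK3326595 were 3 without GSK3326595 replicate 2 or DMSO replicate 1, and 13 with the block. The fall, of VEGFA (-0.36; edgeR adjusted p = 0.0332), was lost without GSK3326595 replicate 2 (edgeR adjusted p = 0.0884) or DMSO replicate 1 (0.17), and was 2 genes with the block.

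Of 10 tested genes reported as EGR1 targets, 2 rose and 2 fell with palbociclib (median -0.17) and 3 rose with GSK3326595 (median 0.26). THBS1, a matrix glycoprotein, had 3440 ± 408 CPM with GSK3326595, against 1751 ± 216 CPM with DMSO (0.97 ± 0.142; edgeR adjusted p = 0.000698), and ICAM1, an adhesion molecule, rose by 0.57 (edgeR adjusted p = 0.00225). With palbociclib ICAM1 rose by 0.70 (edgeR adjusted p = 0.000161) and THBS1 by 0.52 (edgeR adjusted p = 0.0114; 0.117 without palbociclib replicate 2 and 0.12 without DMSO replicate 1). PDGFA, a growth factor, had 6.36 ± 1.81 CPM with palbociclib, 16.4 ± 2.14 CPM with GSK3326595 and 15.6 ± 1.64 CPM with DMSO (-1.29 ± 0.189 with palbociclib against DMSO; edgeR adjusted p = 0.000227). Between the inhibitors 6 of the 10 were lower with palbociclib (median -0.37), and 3 were lower without either palbociclib library. With the block 4 fell with palbociclib, as without DMSO replicate 1, and 5 rose with GSK3326595.

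**Figure D5:**
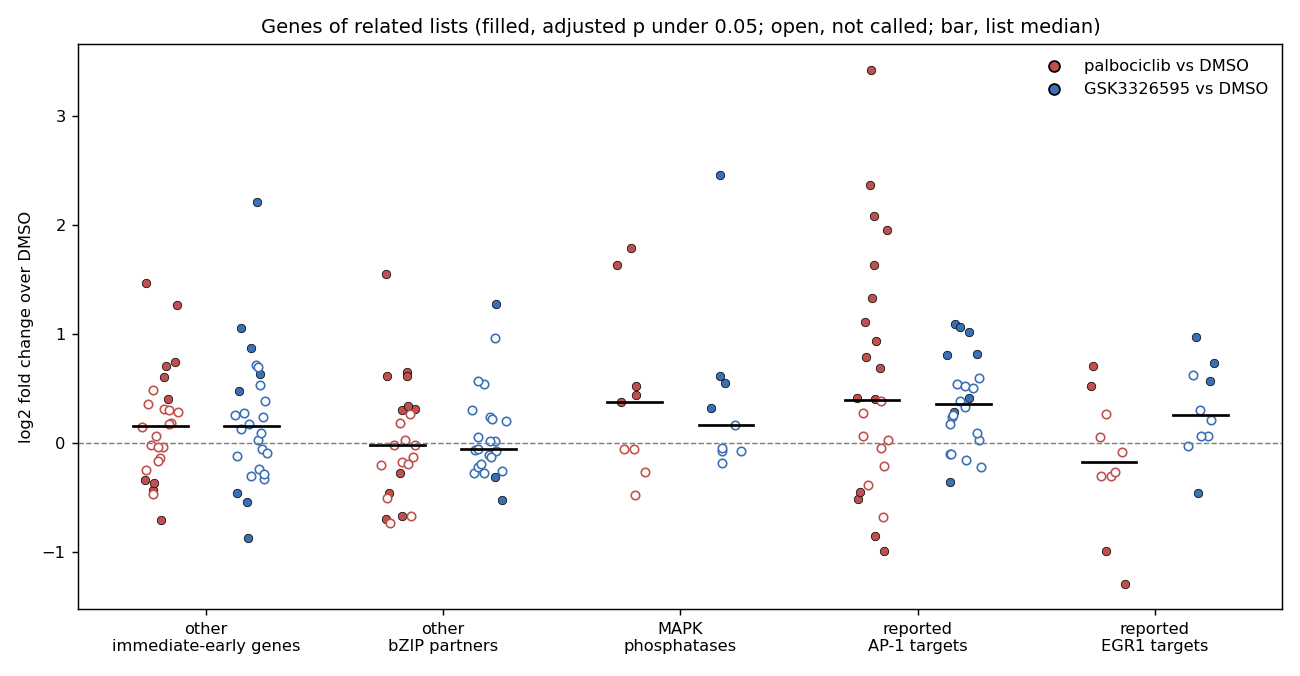
Log2 fold changes over DMSO (y axis) of the genes in 5 related lists, red for palbociclib and blue for GSK3326595; filled points have an edgeR adjusted p under 0.05 and bars are list medians. The medians of the reported AP-1 targets lie at 0.40 for palbociclib and 0.36 for GSK3326595, and those of the reported EGR1 targets at -0.17 and 0.26.

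Immediate-early mRNAs are short-lived. Neither their decay nor the turnover of their proteins was measured, and only RNA levels of genes tied to each were read, in 2 short lists. The first list holds 10 genes for AU-rich mRNA binding proteins, not all of which promote decay, and EGR co-repressors. Of these, 1 rose and 7 fell with palbociclib (median -0.40), and 2 fell with GSK3326595 (median -0.16). ZFP36L2, which promotes decay of AU-rich mRNAs, fell by 0.81 with palbociclib (edgeR adjusted p = 1.92e-05) and by 0.65 with GSK3326595 (edgeR adjusted p = 0.000366), and HNRNPD fell by 0.96 with palbociclib (edgeR adjusted p = 7.25e-05). The rise, of the EGR co-repressor NAB2 (0.38; edgeR adjusted p = 0.0148), was lost without palbociclib replicate 2 (0.163) or DMSO replicate 1 (0.0879). The other fall with GSK3326595, of ELAVL1, was lost without either palbociclib library, either GSK3326595 library or DMSO replicate 2 (edgeR adjusted p between 0.0531 and 0.32).

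Of 8 genes for AP-1 protein turnover, 4 fell with palbociclib (median -0.21) and 2 fell with GSK3326595 (median -0.22). SENP1, a SUMO protease, fell by 0.98 with palbociclib (edgeR adjusted p = 1.16e-05) and USP28, a deubiquitinase that can stabilise JUN, by 0.75 (edgeR adjusted p = 0.000127). The 2 falls with GSK3326595, ITCH and USP28, were both lost without GSK3326595 replicate 2, DMSO replicate 1 or DMSO replicate 2 (edgeR adjusted p between 0.067 and 0.113). They were 1 without either palbociclib library and 4 with the block.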

How the data were processed

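Per the labels' protocols, total RNA was purified on RNeasy columns, depleted of ribosomal RNA and made into TruSeq RNA v2 libraries. For each of the 6 libraries the authors deposited unnormalised read counts by NCBI Gene ID. The submitters' processing notes name build hg38 and the tools HISAT2, featureCounts 1.6.2, cutadapt 1.7, CASAVA 1.8.2 and limma; which annotation, strand setting and rule for multiply aligned reads were used is not given in the sources used here. Of 28395 gene IDs, 27745 matched a RefSeq symbol and 650 stayed in under their IDs.

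The deposited counts were tested with edgeR 4.0.16 in R 4.3.3: filterByExpr with a minimum count of 10, TMM, 1 coefficient per group over all 6 libraries, 3 residual degrees of freedom, and two-sided quasi-likelihood F tests of each inhibitor against DMSO and of palbociclib against GSK3326595. SE is the size of the log2 fold change over the root of its F statistic. The biological coefficient of variation was 0.0839. DESeq2 1.42.0, other scalings and filters, the 2 groups alone, a replicate block and the omission of each library were alternatives.

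Total counts of 16589153 to 20842099 leave FOS with 23 to 57 reads per library, where counting error is large. Nothing in the labels says that replicates came from separate cultures; the p-values therefore describe library-to-library spread that may be technical only. Replicates differed by more than sampling noise (chi-square over its degrees of freedom: palbociclib 5.48, GSK3326595 10.7, DMSO 8.33). Both DMSO libraries enter both comparisons against DMSO.

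The replicate numbers come from the labels. Same-numbered libraries deviated from their group means together. Correlations across genes were 0.14 between palbociclib and GSK3326595, 0.179 between palbociclib and DMSO, and 0.341 between GSK3326595 and DMSO. The numbers were therefore taken to pair the libraries in the blocked alternative, though the labels do not say what a number marks. The main tests carry no block, so their SE, intervals and adjusted p include any difference shared by same-numbered libraries. Blocked values are given where they change a call among the members, but not for every list count they move by over 1.5 times. With the block, heat-shock genes called lower against DMSO were 7 in place of 2 with palbociclib and 6 in place of 2 with GSK3326595. SOX10 and SOX9 became called lower with GSK3326595 against DMSO. For palbociclib against GSK3326595, 8 other bZIP genes were called lower in place of 4, and 8 other immediate-early genes higher in place of 5. Other moved counts are not listed.

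The 10 genes and the 13 other lists were chosen with earlier results of these data known. Genes named from a list are the 2 called genes with the smallest p in each direction and comparison that average 2 CPM or more across all 6 libraries; other genes named with a count whose calls changed were chosen after their values were seen. The lists cover other bZIP genes, other immediate-early genes, upstream kinases and SRF factors, and MAPK phosphatases. They also cover AU-rich mRNA binding proteins and EGR co-repressors, AP-1 protein turnover, reported AP-1 targets, reported EGR1 targets and heat-shock genes. Markers of melanoma lines, fibroblasts and endothelium, blood cells and epithelia make up the rest. Motifs were searched on both strands of the 250 bases before each RefSeq start, and log2 CPM for profile distances used a prior count of 2. Results of a few list genes are not reported here.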

Additional observations from a re-analysis of the deposited data

How the results depend on the processing

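Of 390 recomputed log2 fold changes of the 10 genes over 13 alternatives, 342 kept their direction and their side of the threshold, 27 lost a call, 12 gained one and 9 changed sign, all 9 among values that were not called. The sign changes came from leaving out 1 library. For palbociclib against DMSO, JUN became 0.066 without DMSO replicate 2 (range -0.16 to 0.066 over the 6 omissions), JUND -0.078 without DMSO replicate 1 (-0.078 to 0.13), and ATF3 -0.034 without palbociclib replicate 1 and -0.0068 without DMSO replicate 2 (-0.034 to 0.32). For GSK3326595 against DMSO, JUNB became 0.21 without GSK3326595 replicate 1 and 0.09 without DMSO replicate 2 (-0.40 to 0.21), and EGR3 0.10 without DMSO replicate 2 (-0.61 to 0.10). FOSL1 became -0.18 without palbociclib replicate 2 and -0.14 without GSK3326595 replicate 1 (-0.18 to 0.19) for palbociclib against GSK3326595. The cause of these changes was not tested beyond the smaller number of libraries.

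With each library left out in turn, the genes called numbered between 4007 and 7259 for palbociclib against DMSO, where 6470 were called with all 6 libraries. They numbered between 1765 and 3230 for GSK3326595 against DMSO (3081 with all 6) and between 3312 and 5542 for palbociclib against GSK3326595 (5707 with all 6). With the replicate block 5769 genes were called for GSK3326595 against DMSO. Among the 10 genes, the block added JUNB for palbociclib against DMSO and JUND for both comparisons with GSK3326595, and it changed no other call among them.

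Members called higher with palbociclib against DMSO were 2, EGR3 and JUNB, in place of 1 with DESeq2 size factors, library totals, DESeq2, no filter, the replicate block or the 2 groups alone, and 0 to 2 with a library left out. Members called lower were 1 in place of 2 with DESeq2 size factors or DESeq2, and 1 to 2 with a library left out. For GSK3326595 against DMSO, members called lower were 1 in place of 2 with library totals, DESeq2 or the 2 groups alone and with any library left out, since FOS was lost, and members called higher were 2 to 4 with a library left out. For palbociclib against GSK3326595, 0 to 3 were called higher and 4 lower with a library left out. The cause of these changes was not tested. Among the related lists, DESeq2 called 2 falls in place of 4 among other immediate-early genes with palbociclib. With GSK3326595 it called 2 MAPK phosphatases in place of 4 and 1 turnover gene in place of 2, as did the 2 groups alone, which also called 1 bZIP fall in place of 2. With DESeq2, no filter or the 2 groups alone, ARAF was not called. In these settings and with DESeq2 size factors, 1 gene of the AU-rich mRNA list was called in place of 2. No scaling moved the median of all genes by more than 0.1, and levels of FOS, FOSB and EGR3 are limited by depth.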
